A study of Mus musculus with 8 samples.

Results

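Macrophage markers of mouse liver were followed across age, diet and generation, and they make up 10 of the 16593 genes with a probe on the array. The set was given by name: Clec4f, Vsig4, Cd5l and Timd4, which mark the resident macrophages of liver (Kupffer cells), and Marco, C1qa, C1qb, C1qc, Lyz2 and Gpnmb, which are read as general or lipid-associated macrophage genes. Whole liver RNA of female C57/BL6 mice, taken after a 6 h fast, had been hybridised to 8 Illumina bead arrays, 1 for each combination of age, dietary fat and generation. The older arrays (age 456 days, D456) were F3 21%, F1 21%, F3 5% and F1 5%, where the percentage is corn oil in the diet by weight and F1 or F3 is the generation. The younger arrays (age 90 days, D90) were the same 4 combinations. No combination had a replicate. The labels leave unstated whether animals were pooled, so each p-value covers no more than the scatter of these 8 arrays. Strain, sex, tissue and fasting were shared by all groups.

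Kupffer cells sit in the sinusoids, the capillaries of the liver, where they clear particles, dying cells and old red blood cells from portal blood. Those seeded before birth renew themselves and carry Clec4f, Vsig4 and Timd4, while macrophages that arise later from blood monocytes take up Clec4f and Vsig4 early and Timd4 late or not at all. Macrophages are also the main source of C1q, the recognition molecule of the classical complement pathway, and in fat-laden tissue some of them switch on a set of lipid-handling genes that includes Gpnmb. In whole liver these genes are read against a large excess of hepatocyte RNA, so more macrophages and more RNA per macrophage cannot be told apart.

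The tissue label held, as 8 of 10 listed hepatocyte genes passed the filter with a list median of 12.48 to 13.19 on the log2 scale on every array. Within that list Alb was at 8.09 to 9.04, and Fgb, at 6.92 to 7.095, carried little signal. Some arrays also carried transcripts of other tissues. The median of 11 pancreas acinar genes was 10.393 in F3 5% D456, 9.906 in F1 5% D456 and 8.997 in F3 5% D90, against 6.94 to 7.10 in the other 5 arrays. Single genes of that list were higher than this median there too, with Cela1 at 9.14 to 10.10 in those 5 and Reg1 at 8.33 in F3 21% D456. The median of 6 skeletal muscle genes was 8.76 in F1 5% D90 and 8.23 in F3 5% D456, against 6.89 to 7.21 elsewhere. The F1 5% D90 array had a mean correlation of 0.977 with the others, against 0.986 to 0.990 for the rest. Values without 1 of these arrays or with the pancreas level as a covariate are given beside the results they move most.

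A gene was read from its probe with the highest mean log2 intensity and was tested if that mean lay above 6.95, the median of all probes (8945 genes). Of the 10 markers, 9 passed this filter. Cd5l, which encodes a secreted apoptosis inhibitor of macrophages, did not: its 1 probe lay between 6.79 and 6.83 on all arrays, and 7.7% of all probes were dimmer. Its age difference was -0.01 ± 0.01 (SE), and at that brightness the array gives no usable level for it. Timd4 (mean 7.47), Marco (7.48) and Gpnmb (7.47) were dim, and since no background had been subtracted their differences are understated. Clec4f, Vsig4, C1qb, C1qc and Lyz2 were brighter than 93.8% of all probes or more, and C1qa than 85.5%. Levels of different genes are not compared, because each probe has its own response.

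Vsig4, the 3 C1q subunit genes and Lyz2 were higher at D456 than at D90 in all 4 matched pairs of arrays (7.61% of all genes were), and for each of these 5 genes the lowest D456 array lay above the highest D90 array. Clec4f, Marco and Gpnmb showed no such order, and Timd4 was lower in 3 of 4 pairs. No marker passed the test: 0 of 9 had an adjusted p below 0.05 for age in the linear model of limma, against 9 of 8945 genes (0.101%). At an unadjusted p below 0.05 there were 5 higher and 1 lower, where 5.62% of all genes were called higher and 6.57% lower. Groups that did not overlap, with D456 higher, were found for 5 of the 9 markers and for 3.22% of all genes. The markers were chosen with earlier results of these data known, so the shares of all genes describe them and do not test them. The same holds for the gene lists below. Nor are the 5 genes separate observations, as the 3 C1q genes had a Pearson r of 0.949 to 0.996 with each other over the 8 arrays. Of the 9 markers 8 had a difference above 0, against 40.6% of all genes, but Marco and Gpnmb among them were at +0.001 each. The median age difference of the 9 was +0.32 on the log2 scale, against -0.02 over all genes, and it was +0.18 with the pancreas level as a covariate. With the arrays weighted by their quality in limma, 3 of the 9 passed (Vsig4, C1qc and Lyz2, with an adjusted p of 0.0249, 0.0476 and 0.0202), as did 234 genes in all.

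**Figure D1:**
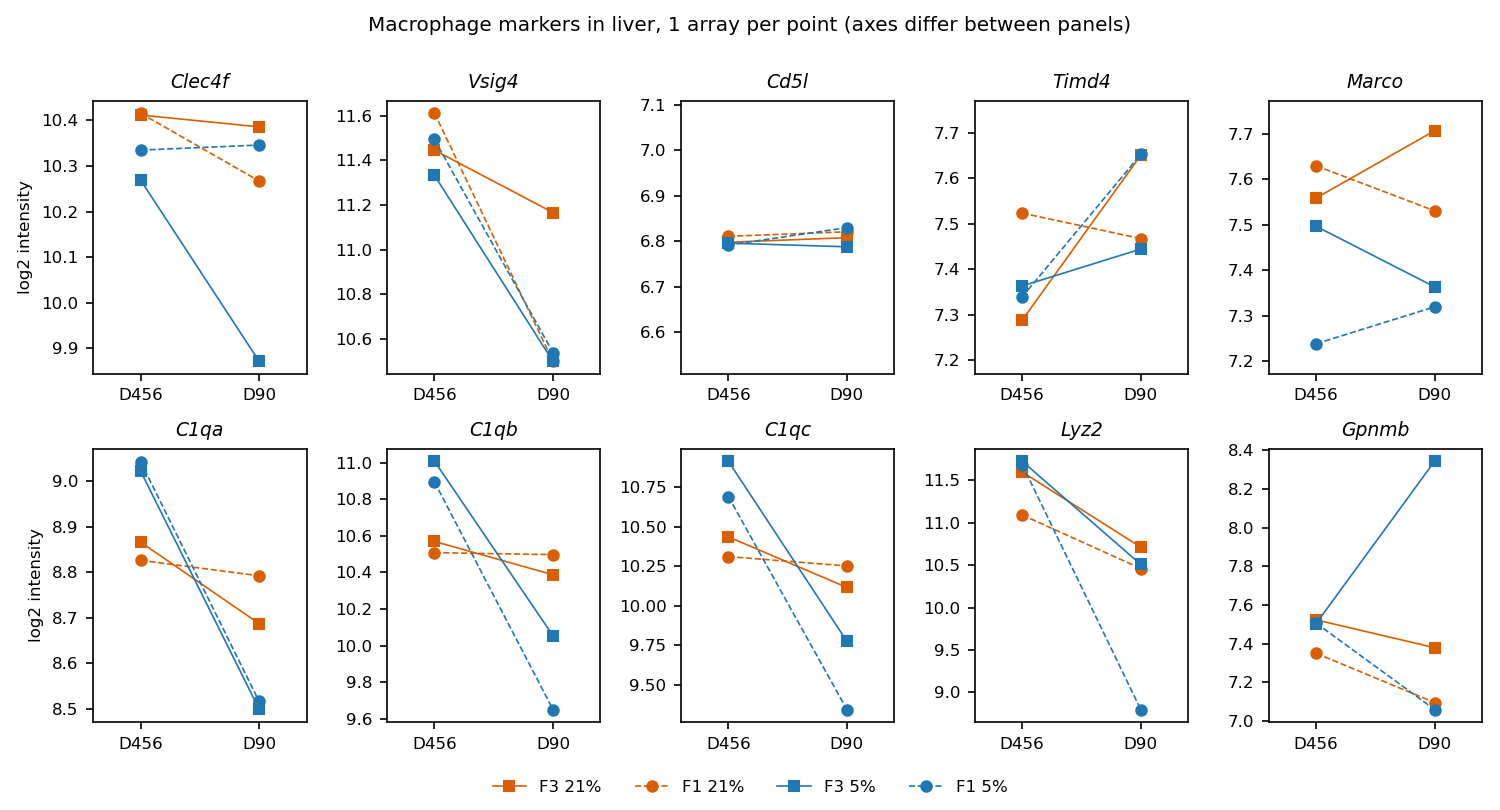
Log2 intensity (y axis, own range in each panel) of the 10 macrophage markers at D456 (left) and D90 (right). Each point is 1 array and each line joins the arrays of 1 generation and diet. Vsig4, C1qa, C1qb, C1qc and Lyz2 have all 4 D456 arrays above all 4 D90 arrays, and Cd5l stays between 6.79 and 6.83.

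Among the resident markers, Vsig4 encodes a receptor of the immunoglobulin family that binds complement C3b and lets Kupffer cells catch coated bacteria. Its log2 intensity at D456 was 11.45 in F3 21%, 11.61 in F1 21%, 11.33 in F3 5% and 11.49 in F1 5%, against 11.17, 10.50, 10.50 and 10.54 in the D90 arrays of the same order. The F3 21% D90 array stood above the other D90 arrays, and the 4 older arrays lay close together. Vsig4 averaged 11.47 ± 0.12 at D456 and 10.68 ± 0.33 at D90 (SD, n = 4 each), a difference of +0.79 ± 0.15 (1.73-fold), with an unadjusted p = 0.00054 and an adjusted p = 0.0960 in limma. Without the F3 21% D90 array the difference was +0.97. In the 21% diet, where the pancreas median was low on all arrays, the 2 pairs averaged +0.70, and in the 5% diet +0.89.

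Clec4f, a C-type lectin that in mice is restricted to Kupffer cells, behaved otherwise. It stood at 10.41 in F3 21%, 10.42 in F1 21%, 10.27 in F3 5% and 10.34 in F1 5% at D456, against 10.39, 10.27, 9.87 and 10.35 at D90. Of these 8 arrays 7 lay between 10.27 and 10.42, and F3 5% D90 alone was lower. The age difference was +0.14 ± 0.11 (adjusted p = 0.569 in limma) and was +0.04 without F3 5% D90. The second probe of Clec4f (mean 7.65) gave +0.02 ± 0.07.

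Timd4 encodes a receptor for phosphatidylserine, the signal that dying cells expose, and is the marker of long-lived Kupffer cells. Its values were 7.29 in F3 21%, 7.52 in F1 21%, 7.36 in F3 5% and 7.34 in F1 5% at D456, against 7.65, 7.47, 7.44 and 7.65 at D90. The groups overlapped because of the F1 21% pair, in which the older array was the brighter one by 0.06. The difference was -0.175 ± 0.07 (unadjusted p = 0.0439, adjusted p = 0.399 in limma), -0.38 when the background of each array was subtracted, and -0.11 with the pancreas level as a covariate. Vsig4 and Timd4, both resident markers, thus had age differences of opposite sign, with Clec4f between them. The median of the 3 resident markers was +0.14, and that of the 6 general or lipid-associated ones +0.46; the members of each set differed more among themselves than these medians did. With the pancreas level as a covariate the medians were +0.22 for the resident and +0.18 for the general or lipid-associated markers, so their order depended on that choice, and the resident median was +0.04 without F3 5% D90.

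**Figure D2:**
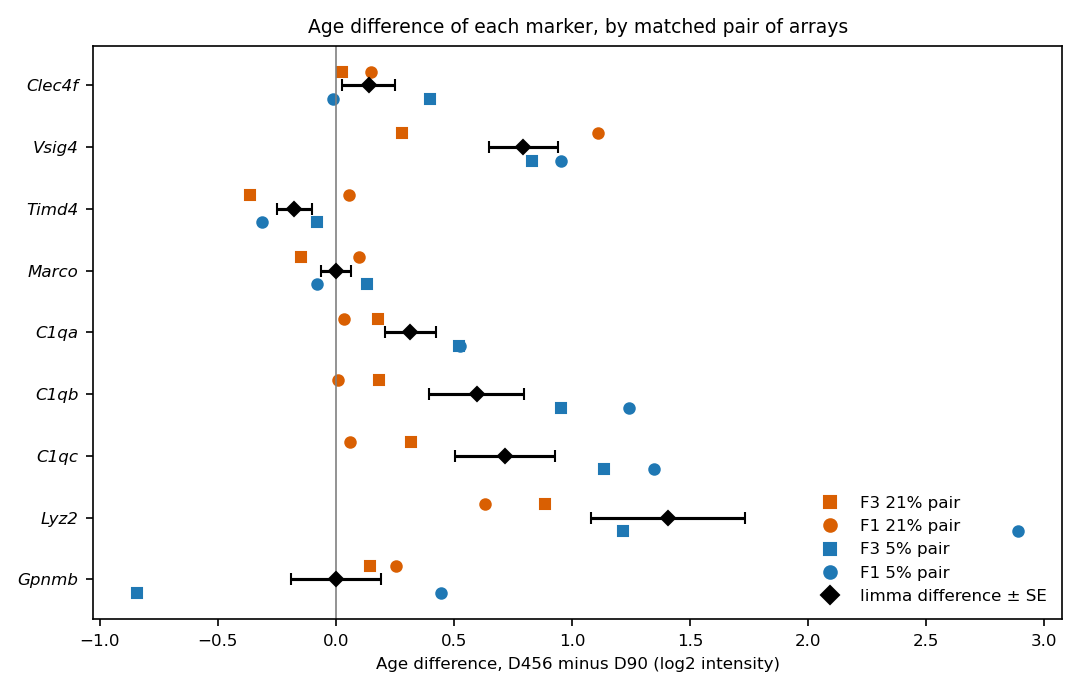
Age difference (D456 minus D90, log2 intensity) of each marker past the filter. Coloured points are the 4 matched pairs of arrays, with 21% above and 5% below each row, and black diamonds with bars are the limma difference ± SE. The 5% pairs of C1qb and C1qc lie near or above 1 and their 21% pairs below 0.35, while the pairs of Vsig4 are mixed.

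C1qa, C1qb and C1qc encode the chains that join into 1 C1q molecule, and they are neighbours on chromosome 4. The starts of C1qb and C1qc are shown because the pair had nearly the same profile over the 8 arrays (Pearson r = 0.996, given as a description), and that of Vsig4 because it had the smallest p for age of the markers. Each sequence is the 250 bases before the gene's start in RefSeq, build GRCm38.p6, written 5′ to 3′ on the gene's strand, with GAGGAA, the purine core that the macrophage factor PU.1 binds, or its reverse complement TTCCTC in capitals.
C1qb, chr4:136886201-136886450, minus strand: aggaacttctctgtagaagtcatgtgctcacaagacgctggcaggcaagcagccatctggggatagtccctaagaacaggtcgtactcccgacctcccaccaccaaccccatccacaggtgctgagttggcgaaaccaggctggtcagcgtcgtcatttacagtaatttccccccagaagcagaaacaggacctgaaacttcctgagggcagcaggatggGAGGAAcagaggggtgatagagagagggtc
C1qc, chr4:136892915-136893164, minus strand: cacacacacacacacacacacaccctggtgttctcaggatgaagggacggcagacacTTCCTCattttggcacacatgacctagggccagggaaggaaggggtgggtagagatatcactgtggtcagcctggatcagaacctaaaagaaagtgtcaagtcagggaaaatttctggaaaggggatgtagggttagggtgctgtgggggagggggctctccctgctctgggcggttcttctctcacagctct
Vsig4, chrX:96293439-96293688, minus strand: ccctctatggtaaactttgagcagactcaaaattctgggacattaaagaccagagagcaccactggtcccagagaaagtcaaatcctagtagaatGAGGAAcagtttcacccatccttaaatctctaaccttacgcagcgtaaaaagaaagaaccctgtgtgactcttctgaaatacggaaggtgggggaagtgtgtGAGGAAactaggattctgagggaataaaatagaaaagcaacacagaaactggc
The motif was searched on both strands. It was present in 5 of the 9 markers with a promoter in that table (Vsig4, Cd5l, Marco, C1qb and C1qc), and in 23.3% of all 32851 promoters of the same length. In C1qb its first base is 30 bases before the start, and in Vsig4 the nearer copy is 53 bases before it. A match only says that these letters are there.

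C1qb stood at 10.57 in F3 21%, 10.51 in F1 21%, 11.01 in F3 5% and 10.89 in F1 5% at D456, against 10.39, 10.50, 10.05 and 9.65 at D90. The 5% arrays held both extremes, highest at D456 and lowest at D90, and in the F1 21% pair the ages differed by 0.01. C1qc had the same order of pairs, with 10.44, 10.31, 10.92 and 10.69 at D456, against 10.12, 10.25, 9.78 and 9.345 at D90, again for F3 21%, F1 21%, F3 5% and F1 5%. C1qa had 8.87, 8.83, 9.02 and 9.04 at D456, against 8.69, 8.79, 8.50 and 8.52 at D90. The age differences were +0.60 ± 0.20 for C1qb, +0.72 ± 0.21 for C1qc and +0.32 ± 0.11 for C1qa, with an adjusted p of 0.325, 0.269 and 0.334 in limma.

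The age difference of the C1q genes was larger with 5% than with 21% corn oil. With 21% fat the 2 pairs averaged +0.10 for C1qb, +0.19 for C1qc and +0.11 for C1qa. With 5% fat they averaged +1.10 (2.14-fold), +1.24 (2.37-fold) and +0.53 (1.44-fold). The interaction of age and diet, the 21% age difference minus the 5% one, was -1.002 ± 0.21 for C1qb, -1.05 ± 0.22 for C1qc and -0.42 ± 0.175 for C1qa. Of the 9 markers 0 passed for this interaction and 0% of all genes did (smallest adjusted p of a marker 0.403 in limma). At an unadjusted p below 0.05, 4 of 9 were called below 0 (the 3 C1q genes and Lyz2), and 5.38% of all genes were. With the pancreas level as a covariate the interaction was -0.56 for C1qb, -0.60 for C1qc, -0.39 for C1qa and +0.15 for Lyz2, against -1.29 for Lyz2 without the covariate. All 11 pancreas genes had an interaction below 0 themselves, so the covariate and the interaction cannot be fully told apart. Without F1 5% D90 the interaction was -0.81 for C1qb, -0.87 for C1qc, -0.41 for C1qa and -0.57 for Lyz2. Without F3 5% D90 it was -1.19 for C1qb, -1.23 for C1qc and -2.02 for Lyz2. That fit leaves F1 5% D90, the array least like the others, as the only 5% array at D90, so only the sizes are given. Read by diet at each age, C1qb with 21% minus 5% fat was -0.44 in F3 and -0.39 in F1 at D456, and +0.33 in F3 and +0.85 in F1 at D90.

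Both 5% D456 arrays, where C1q was highest, were those with the most pancreas transcript. The F3 5% D90 array, which also held pancreas transcript, had C1q values below every array of the 21% diet. With the pancreas level as a covariate the age differences were +0.18 for C1qb, +0.28 for C1qc and +0.18 for C1qa. The part of pancreas tissue in these differences was not tested. On the 21% arrays alone, where the pancreas median was 6.94 to 7.10, C1qb, C1qc and C1qa still had both D456 arrays above both D90 arrays, but by margins of 0.01 for C1qb, 0.06 for C1qc and 0.03 for C1qa between the closest arrays, and 14.4% of all genes met that rule on 4 arrays.

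Lyz2, the lysozyme of macrophages and neutrophils, had the largest age difference of the markers. It stood at 11.60 in F3 21%, 11.09 in F1 21%, 11.73 in F3 5% and 11.69 in F1 5% at D456, against 10.71, 10.46, 10.51 and 8.80 at D90. The F1 5% D90 array was far below the rest. Lyz2 averaged 11.53 ± 0.29 at D456 and 10.12 ± 0.89 at D90 (SD, n = 4 each), a difference of +1.41 ± 0.33 (2.65-fold, adjusted p = 0.167 in limma). It was +0.97 without F1 5% D90, the array that stood apart as a whole, and +0.69 with the pancreas level as a covariate. Its second probe (mean 9.18) gave +0.57 ± 0.15, with 8.65 in F1 5% D90 and 8.64 in F1 21% D90, so on that probe the F1 5% D90 array was not the lowest. The third probe (mean 6.90) was below the filter and gave +0.05 ± 0.02.

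Lyz1, the lysozyme gene of Paneth cells in the gut, is a close copy of Lyz2, and its bright probe also separated the ages. Their promoters are shown because the copies are alike where transcription starts: 92 of the last 100 bases before the start are identical, and 60.8% of all 250 by position without gaps. Capitals would mark GAGGAA or TTCCTC, which neither holds.
Lyz2, chr10:117282273-117282522, minus strand: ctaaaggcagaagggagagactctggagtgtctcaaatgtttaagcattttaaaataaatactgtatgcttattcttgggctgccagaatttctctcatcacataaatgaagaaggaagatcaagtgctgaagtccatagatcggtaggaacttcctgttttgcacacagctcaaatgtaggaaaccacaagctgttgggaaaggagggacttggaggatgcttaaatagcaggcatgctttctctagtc
Lyz1, chr10:117292869-117293118, minus strand: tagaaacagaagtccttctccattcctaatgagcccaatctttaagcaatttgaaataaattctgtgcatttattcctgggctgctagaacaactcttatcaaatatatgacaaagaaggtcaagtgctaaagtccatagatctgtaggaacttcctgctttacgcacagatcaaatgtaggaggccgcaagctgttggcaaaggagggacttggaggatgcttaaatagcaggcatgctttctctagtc
Lyz1 had 13.18, 12.97, 13.05 and 13.03 at D456 in F3 21%, F1 21%, F3 5% and F1 5%, against 12.66, 12.32, 12.48 and 11.84 at D90. All older arrays were brighter, by +0.73 ± 0.115 (SE, adjusted p = 0.0658 in limma). Its other probes were near the filter bound (means 6.98 and 6.96). How well a probe of either gene tells the pair apart is not known here, so the signal of both is uncertain between them.

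Neutrophil genes, which share Lyz2, were also higher at D456. All 7 of the 13 listed neutrophil genes that passed the filter were higher (median +0.29, against -0.02 over all genes). In limma 0 passed and 6 were higher at an unadjusted p below 0.05, against 5.62% of all genes. The calprotectin subunit S100a8 had +1.30 ± 0.20 and S100a9 +0.82 ± 0.12 (adjusted p = 0.0645 for both). The summed intensity of the 7 genes ranged from 3290 to 5897 at D456, against 1421 to 3868 at D90. Lcn2 (+1.53 ± 0.585) was the brightest of the 7 in F3 21% D456 (11.89) and F1 21% D90 (11.22), so it weighed most in the sum there. Camp and Csf3r were near the filter bound, and Ly6g, Mpo and Elane were not among the genes that passed it. The part of neutrophils in the Lyz2 difference was not tested.

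Marco, a class A scavenger receptor that binds bacteria and particles, showed no age order. It was 7.56 in F3 21%, 7.63 in F1 21%, 7.50 in F3 5% and 7.24 in F1 5% at D456, against 7.71, 7.53, 7.36 and 7.32 at D90. The difference was 0.00 ± 0.06, with 2 pairs higher and 2 lower. The same values split by diet: all 4 arrays of 21% fat (7.53 to 7.71) lay above all 4 of 5% fat (7.24 to 7.50). The diet difference was +0.25 ± 0.06 (1.19-fold, unadjusted p = 0.00339, adjusted p = 0.574 in limma).

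Gpnmb encodes a membrane glycoprotein of lipid-laden macrophages, which melanocytes and osteoclasts make as well. It had 7.52 in F3 21%, 7.35 in F1 21%, 7.50 in F3 5% and 7.51 in F1 5% at D456, against 7.38, 7.095, 8.34 and 7.06 at D90. The F3 5% D90 array alone stood out, and in the other 3 pairs the D456 array was higher, by 0.14 to 0.45. With all arrays the age difference was 0.00 ± 0.19 (adjusted p = 0.999 in limma), and without F3 5% D90 it was +0.26. Only 1 of the 4 Gpnmb probes carried this signal, as the other 3 stayed between 6.79 and 6.89 on all arrays. In the same F3 5% D90 array Clec4f was at its lowest, and the pancreas genes were present. The F3 5% D456 and F1 5% D456 arrays held more pancreas transcript, with Gpnmb at 7.50 and 7.51 and Clec4f at 10.27 and 10.34. The part of pancreas tissue in the Gpnmb value was not tested.

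**Figure D3:**
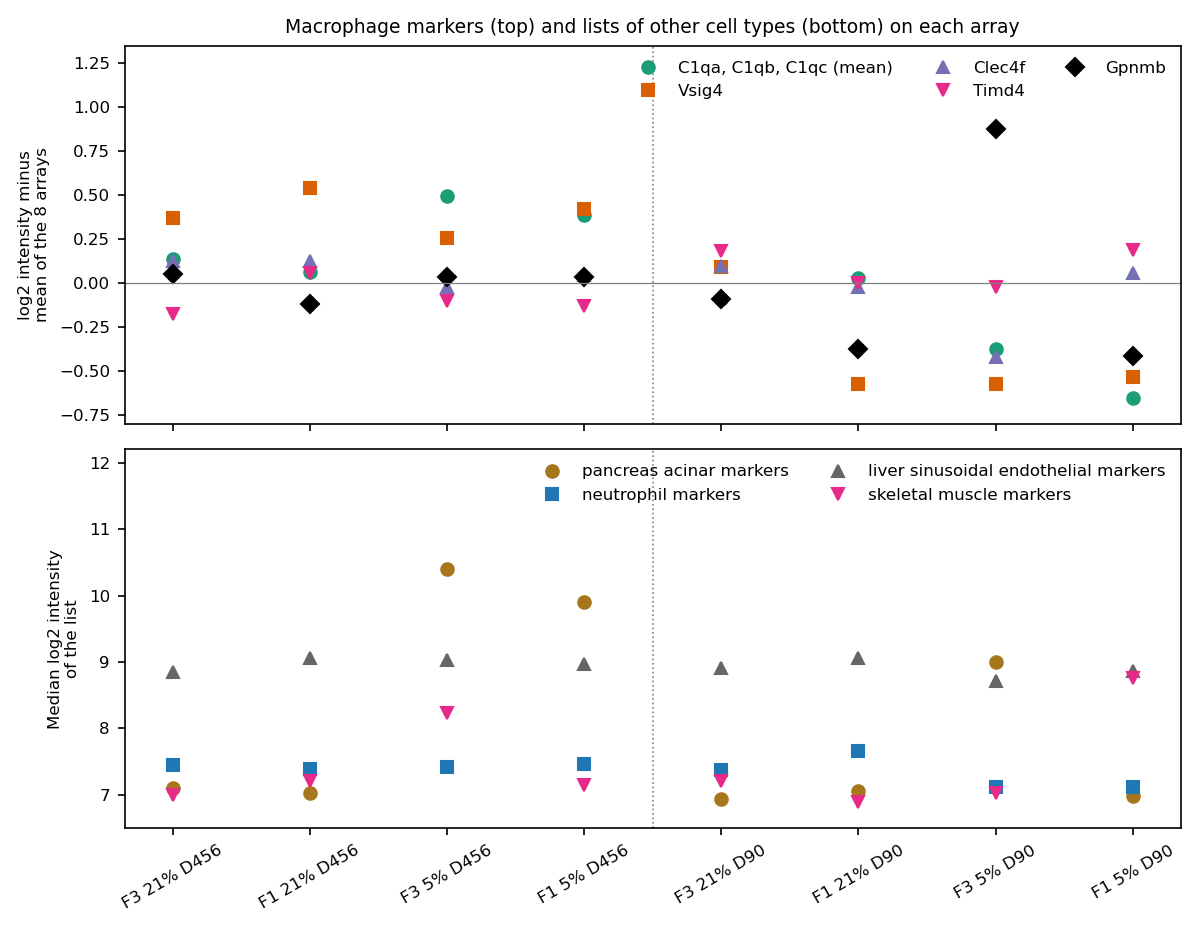
Top, log2 intensity minus the mean of the 8 arrays for the C1q subunits (mean of 3 genes), Vsig4, Clec4f, Timd4 and Gpnmb on each array. Bottom, median log2 intensity of 4 lists of other cell types, with D456 arrays left of the dotted line and D90 arrays right of it. Gpnmb is at +0.87 and Clec4f at -0.42 in F3 5% D90, and the pancreas list reaches 8.997 to 10.393 in 3 arrays of the 5% diet.

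Diet and generation separated the markers less than age did. For 21% against 5% fat, 8 of 9 markers were higher (53% of all genes were; median +0.10, against 0.00 over all genes), 0 passed in limma as for 0% of all genes, and 1, Marco, had an unadjusted p below 0.05, where 1.33% of genes were called higher. Marco was also the only marker whose diet groups did not overlap (0.95% of genes with 21% fat higher), and it was higher in all 4 diet pairs, as were 5.35% of genes. Lyz2 had a diet difference of +0.29 ± 0.33, which was -0.15 without F1 5% D90 and +1.60 (adjusted p = 0.0287 in limma) with the pancreas level as a covariate. In that fit 133 of 8945 genes passed for diet. The pancreas level was high only in arrays of 5% fat, so the covariate and diet cannot be fully told apart. The median over the 9 was -0.03 without F1 5% D90 and +0.265 with that covariate. The diet values of the resident markers were +0.21 ± 0.15 for Vsig4, +0.17 ± 0.11 for Clec4f and +0.03 ± 0.07 for Timd4. Vsig4 had +0.04 without F3 21% D90, and Clec4f +0.06 without F3 5% D90 and +0.02 with the covariate. Gpnmb had -0.27 ± 0.19, and -0.005 without F3 5% D90.

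For F3 against F1, 6 of 9 markers were higher (43.6% of all genes were), the median was +0.10, against -0.01 over all genes, and 0 passed or had an unadjusted p below 0.05 in limma (0% of all genes passed and 2.14% had such a p). Lyz2 (+0.63 ± 0.33) and Gpnmb (+0.435 ± 0.19) had the largest values, with an adjusted p = 0.988 for both. The size of each depended on 1 array, since Lyz2 was at +0.19 without F1 5% D90 and Gpnmb at +0.17 without F3 5% D90. Lyz2 was higher in F3 in all 4 pairs, as were 4.59% of all genes, and no other marker was. For the interactions of generation with age and with diet, 0 of 9 markers passed or had an unadjusted p below 0.05 in limma, and such a p was found for 2.91% and 1.17% of all genes.

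Other genes of Kupffer cells gave a mixed picture, like the resident markers. All 14 listed genes passed the filter, 9 higher at D456 and 5 lower (median +0.06). In limma 0 passed and 5 were higher at an unadjusted p below 0.05, against 5.62% of all genes. Cd207, which encodes the C-type lectin langerin, had 8.67 ± 0.35 at D456 and 7.70 ± 0.13 at D90 (SD, n = 4 each), a difference of +0.97 ± 0.15 (adjusted p = 0.0645 in limma). Folr2, a folate receptor of resident macrophages, had +0.52 ± 0.13, and Fcna, which encodes the lectin ficolin A, +0.49 ± 0.11. C6, a terminal complement component, had -0.49 ± 0.23, with 10.02 in F1 21% D90 and 8.46 to 8.83 in the other 7 arrays. The interaction of age and diet was +0.61 for Cd207 and -0.60 for Folr2.

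Of 24 genes of macrophages in general, 16 passed the filter, 14 higher at D456 and 2 lower (median +0.19). In limma 0 passed and 6 were higher at an unadjusted p below 0.05, against 5.62% of all genes. After Lyz1, the largest values were those of the receptor adaptors Fcer1g (+0.43 ± 0.13) and Tyrobp (+0.36 ± 0.16) and of Ms4a7, a membrane protein of macrophages (+0.32 ± 0.11). Tyrobp followed C1q in its split by diet, with 9.047 and 9.002 in the 5% D456 arrays, 8.38 and 8.18 in the 5% D90 arrays and 8.70 to 8.73 in all 4 arrays of 21% fat. Adgre1, which encodes a defining surface antigen of mouse macrophages and was picked out after its values were seen, depended on the probe. Its brightest probe gave -0.06 ± 0.16 while the other probes gave +0.29 ± 0.12 and, near the filter bound, +0.15 ± 0.05.

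Genes of lipid-associated macrophages were divided. Of 15, 10 passed the filter, 5 higher and 5 lower at D456 (median 0.00). In limma 0 passed and 3 were higher at an unadjusted p below 0.05, against 5.62% of all genes. Lgals3 (galectin 3) had +0.43 ± 0.12, and the tetraspanins Cd9 and Cd63 had +0.39 ± 0.15 and +0.29 ± 0.16. Lipa, the lysosomal acid lipase, had -0.69 ± 0.32, with 11.67 in F1 5% D90 against 9.75 to 10.86 elsewhere. Trem2, the receptor that marks these cells, was dim (+0.22 ± 0.07) and was picked out after its values were seen. Several of these genes are also made by hepatocytes or endothelium.

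Genes of monocytes and recruited macrophages were higher in 7 of the 8 that passed the filter, of 16 listed (median +0.23). In limma 0 passed and 7 were higher at an unadjusted p below 0.05, against 5.62% of all genes. Cx3cr1, Chil3 and F13a1 among them were dim (6.89 to 7.30), and Ly6c2, Ccr2 and Itgam were not among the genes past the filter. Clec7a, the beta-glucan receptor dectin 1, had +0.51 ± 0.19, Plac8 +0.45 ± 0.15, the chemokine Ccl6 +0.35 ± 0.07 and the calcium-binding protein S100a6 +0.25 ± 0.08. Growth factors of macrophages and partners of C1q showed no common order (5 of 9 past the filter, 3 higher, 2 lower, median 0.00). The growth factor Csf1 had +0.02 ± 0.05, the C1 inhibitor Serping1 -0.08 ± 0.07 and Cd93 -0.05 ± 0.05. C1s1, a protease of the C1 complex, had +0.345 ± 0.24, with an interaction of age and diet of -1.09.

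**Figure D4:**
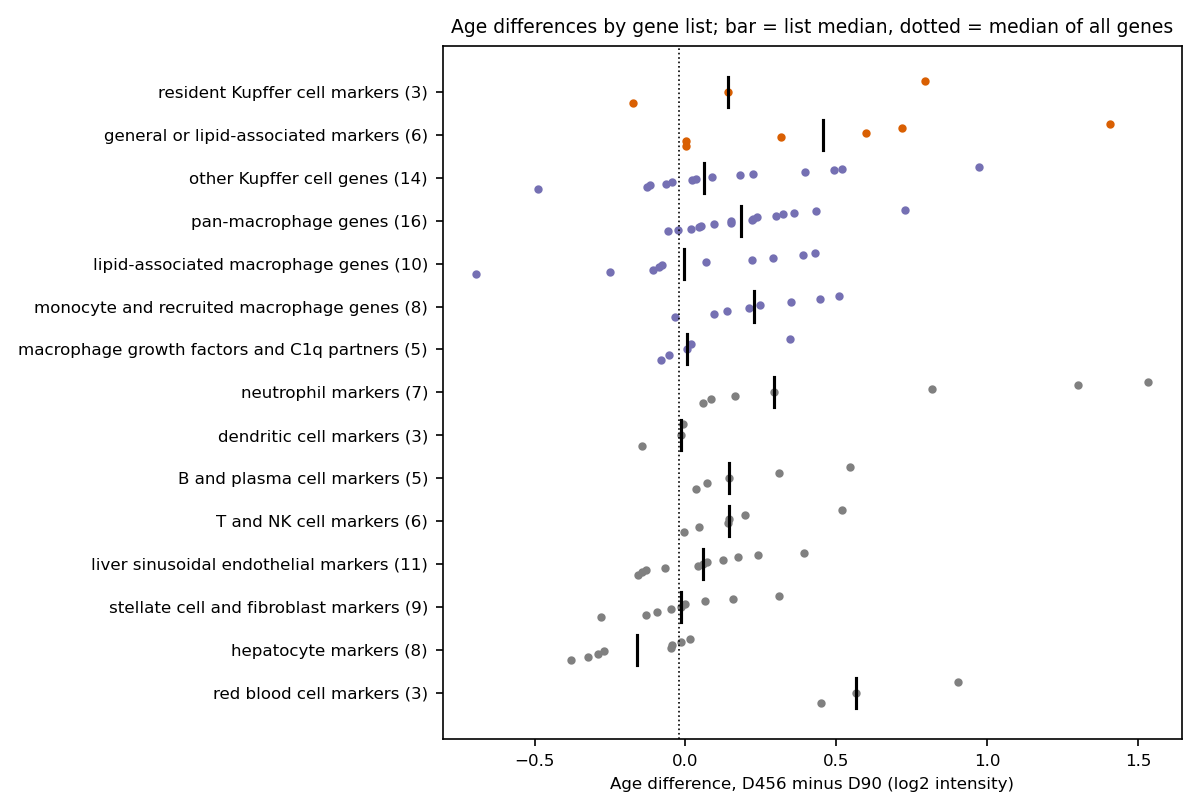
Age difference (D456 minus D90, log2 intensity) of listed genes past the filter, by list. Each dot is 1 gene, black bars are list medians and the dotted line is the median of all genes (-0.02). The pancreas acinar list (median +1.02) and the skeletal muscle list (median -0.075) are not drawn. Orange dots are the 9 markers, purple dots other macrophage genes and grey dots other cell types. General macrophage, monocyte and neutrophil lists lie mostly to the right, and the lipid-associated list on both sides.

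Genes of other cell types also differed with age, and their part in the marker differences was not tested. All 5 B and plasma cell genes past the filter were higher at D456 (median +0.14, 1 passing in limma), as were 5 of 6 T and NK cell genes (median +0.14) and all 3 red blood cell genes (median +0.56, 1 passing). Of all genes 40.6% were higher and 0.101% passed. Sinusoidal endothelial genes, which share the sinusoids with Kupffer cells, were higher in 7 of 11 (median +0.06), with a summed intensity of 9361 to 10546 at D456, against 7813 to 9951 at D90, and stellate cell genes in 3 of 9 (median -0.02). Hepatocyte genes were lower in 7 of 8 (median -0.16), and the summed intensity of those 8 was 84915 to 90552 at D456, against 90301 to 94185 at D90. Of 8 dendritic cell genes 3 passed the filter, all lower (median -0.02), and Xcr1 and Clec9a were not among them.

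The genes most like the markers in pattern were ranked by Pearson correlation over the 8 arrays, which share the age split and the arrays that stand apart, so the values are descriptions. For the mean of the 3 resident markers these were Casp1 (r = 0.957), Sash3 (0.953), Tppp (0.951), P2ry6, Prkcb, Tshz3, Ehd4, Setd4, Clec4g and Nckap1l (0.935). Clec4g is a lectin of sinusoidal endothelium. For the mean of the 6 general or lipid-associated markers they were Arhgdib (r = 0.985), Cops4 (0.981), Tlr2 (0.979), Acadl, Btf3, Arhgap24, Uchl3, Vps29, Pisd and Rragc (0.972). These genes were lowest in F1 5% D90, as Lyz2 was: Acadl, an enzyme of fat oxidation, had 8.12 there and 9.32 to 10.11 elsewhere. The C1q genes alone were a profile added after the values were seen. The 10 genes closest to it were Cyba (r = 0.981), Ube2l6, Ifi30, Tyrobp, Adgre5, Lgmn, Mrpl48, Erg28, Hpse and Sav1 (0.962). They include genes of phagocytes (Cyba, Ifi30, Tyrobp and Lgmn) beside others.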

How the data were processed

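Liver RNA was measured on 8 arrays with 25697 probes. The deposited values are linear intensity as the authors supplied them. All arrays had a mean of 456.9 and medians of 123.2 to 123.5, so they had been scaled to each other. The sources used here give neither the scaling method nor a genome build, and detection p-values were not used. The number of arrays limits the precision. Probes were named through the platform annotation (23978 with 1 symbol, 1719 with none), with names and promoters from RefSeq GRCm38.p6. Values were taken to log2, and the brightest probe stood for a gene. Age, diet and generation were fitted together in limma 3.58.1 (R 4.3.3) with an intensity trend, 4 residual and 4.36 prior degrees of freedom. Interactions were added 1 at a time. P-values were adjusted by Benjamini-Hochberg over 8945 genes, with a threshold of 0.05. The script was tested on simulated data. Figures used matplotlib 3.10.9.

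The members and the 17 gene lists were chosen with earlier results of these data known. All 10 members were named, with up to 4 genes of each macrophage list by the size of the age difference and the 10 genes closest in pattern. Alternatives were quantile normalization, centring, background subtraction (5th percentile, pseudocount 16), other filters (none, or the 75th percentile), the mean of probes, other variance models, array weights, each factor alone, a pancreas covariate, and leaving out each array. A block of matched pairs, and the covariate and left-out arrays for the interaction of age and diet, were added after seeing the data.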

Additional observations from a re-analysis of the deposited data

Results flagged for a closer look

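In 54 groups of 4 arrays, each was searched for a value far from the other 3. For 5 values the gap, as a share of the group's range, exceeded the critical value of Dixon's test at 95%. Among independent groups of replicates chance gives about 1 in 20. Here the arrays of a group differ in the other factors and the groups share arrays, so that rate is no yardstick for the 5. Clec4f was 9.871 in F3 5% D90, against 10.269 to 10.346 in the other arrays of 5% fat. Vsig4 was 11.166 in F3 21% D90, against 10.500 to 10.539 in the other D90 arrays. Lyz2 was 8.797 in F1 5% D90, against 10.46 to 10.712 in the other D90 arrays. Gpnmb was 7.35 in F1 21% D456, against 7.504 to 7.523 in the other D456 arrays, and 8.344 in F3 5% D90, against 7.379 to 7.523 in the other F3 arrays.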

How the results depend on the processing

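With the 4 matched pairs of each factor as a block, a paired fit added after seeing the data, 8 genes passed for age and 0 markers for any factor. Vsig4 had an adjusted p = 0.15 in limma. Its difference stays at +0.794 because the design is balanced, so that only the p-value could move. Replicate numbers pair nothing here, since each combination had 1 array. Of the values of single markers under the alternatives, 609 kept their sign and side of the threshold, 50 reversed and 7 newly passed. For the paired fit, each factor alone, other filters, no intensity trend and robust variances the sign could not change. That part of the 609 is therefore no sign of stability. The number of genes past the threshold for age (9) was 15 with background subtracted, 25 with no filter, 2 with a stricter filter, 0 with no intensity trend, 24 with robust variances, with age alone or with the pancreas covariate, 234 with array weights, and 0 to 23 on leaving out an array. With array weights 3 markers passed. The markers with D456 higher at an unadjusted p below 0.05 (5) were 2 with the pancreas covariate and 3 to 5 on leaving out an array, counts added after seeing the data. The shares of all genes called in those fits are not given, so these counts have no background to be read against. With the stricter filter, which tests fewer genes, the median age difference was 0.657 over all markers left and 0.467 over the resident ones. For diet, array weights gave 43 genes, the pancreas covariate 133 (1 marker, and a median of 0.567 over the general markers), and leaving out an array 0 to 30. The generation median was -0.004 with array weights, -0.026 with the pancreas covariate and -0.016 to 0.160 on leaving out an array, or 0.035 to 0.333 over the general markers.

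Reversed values follow. With the pancreas covariate these were the age difference of Marco (-0.006) and Gpnmb (-0.102), the diet difference of Timd4 (-0.079) and the generation difference of C1qb (-0.113) and C1qc (-0.078), and the interaction of age and diet of Timd4 (-0.181) and Lyz2 (0.150). With array weights they were the age difference of Gpnmb (-0.314) and the generation difference of Vsig4 (-0.004) and C1qb (-0.010). With background subtracted the interaction of age and generation of Marco was 0.013. On leaving out an array, the age difference ran from -0.045 to 0.050 for Marco and -0.162 to 0.263 for Gpnmb. The diet difference ran from -0.022 to 0.099 for Timd4, -0.050 to 0.091 for C1qa, -0.108 to 0.228 for C1qb, -0.108 to 0.245 for C1qc and -0.146 to 0.595 for Lyz2. The generation difference ran from -0.097 to 0.160 for Vsig4, -0.094 to 0.046 for C1qa, -0.080 to 0.299 for C1qb and -0.038 to 0.367 for C1qc. The interaction of age and diet, whose covariate and left-out arrays were also added later, ran from -0.351 to 0.140 for Clec4f, -0.591 to 0.197 for Vsig4, -0.117 to 0.205 for Timd4, -0.165 to 0.064 for Marco and -0.171 to 0.962 for Gpnmb. The cause was not tested.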
